A study of Mus musculus with 21 samples.

Results

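The comparison set aged tibialis anterior muscle 7 days after notexin injury (7 dpi) against uninjured muscle and asked, cell type by cell type, what was back at the uninjured level. Its members were chosen by the deposited injury day of each sample, and comprised 3 mice at 7 dpi (A to C) and 4 uninjured mice (A to D), that is 7 of the 21 samples of the series and 24156 of its 87822 cells. Per the labels, both groups were female C57Bl/6J mice aged 20 months, with 1 mouse in each sample and no transgene in either group. Notexin, a snake venom phospholipase that destroys muscle fibers and spares their stem cells, was injected into both tibialis anterior muscles of the injured mice, and uninjured mice were the day 0 group. Whole muscle was dissociated enzymatically, red blood cells were lysed, and the suspension was profiled by 10x Chromium 3' single-cell RNA sequencing without sorting. The files held values for each cell and no values for individual genes, so the authors' cell type labels were taken as given and could not be checked against marker genes.

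Muscle repair follows an ordered course. Neutrophils and inflammatory monocytes enter first, macrophages that clear debris and then support repair follow, and muscle stem cells (MuSCs) are activated, divide, commit as myoblasts and fuse into new fibers. Fibro/adipogenic progenitors (FAPs) secrete the matrix and growth factors in which this happens, capillaries regrow, and lymphocytes, regulatory T cells among them, appear late in the response.

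The uninjured mice gave 2267, 3413, 5029 and 974 cells and the 7 dpi mice 5968, 4241 and 2264, with 5602464 to 38755533 unique transcript counts (UMIs) summed over the cells of a mouse. Libraries of the 2 groups differed in quality measures as well as in cell types. The share of called barcodes that remained among the deposited cells was 39.9% ± 10.4 (SD, n = 4) in uninjured and 65.5% ± 4.66 (SD, n = 3) in 7 dpi mice, and reads mapped to introns were 6.5%, 6.2%, 11.9% and 9.7% against 18.5%, 18.2% and 15.6%. For both measures the groups did not overlap (two-sided exact permutation test, p = 0.0286, the smallest that 35 splits of 4 and 3 mice allow). Sequencing saturation overlapped (47.4% to 87.4% against 46.3% to 71.1%), with uninjured D the most deeply sequenced per cell. The part of these library differences in the results was not tested.

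At 7 dpi 12 of 24 labels (50%; 23 cell types and the cells without a Harmony label) held a different share of the mouse's cells than in uninjured muscle, by limma at an adjusted p under 0.05. Of these 11 (45.8% of the labels tested) were higher and 1 (4.17%) was lower. Among the 11, 8 were immune types, 2 were myogenic and 1 was the unlabelled cells, and the one that fell was the arterial endothelium. In 13 labels (54.2%) the 3 injured mice all lay outside the range of the 4 uninjured mice. No label (0%) met the rule for a share back at the uninjured level, a 95% interval lying within 2-fold either way, so the remaining 12 labels were undecided. For 6 of these 12 (B cells, adipogenic and pro-remodeling FAPs, both myonuclear types and tenocytes) each 7 dpi mouse lay within the uninjured range. Shares sum to a whole, and the number of cells per muscle was not measured, so fewer cells of one type and more of the others cannot be told apart. The split of higher against lower calls depended on this scale: it was 8 against 10 on centred log ratios and 9 against 8 by edgeR with TMM normalization, which moved the median label by -1.58 and -1.18 on the log2 scale. Of the labels undecided above, both settings called lower both myonuclear types, tenocytes, capillary and venous endothelium, smooth muscle and neural cells. Centred log ratios also called B cells and Stem FAPs lower.

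**Figure D1:**
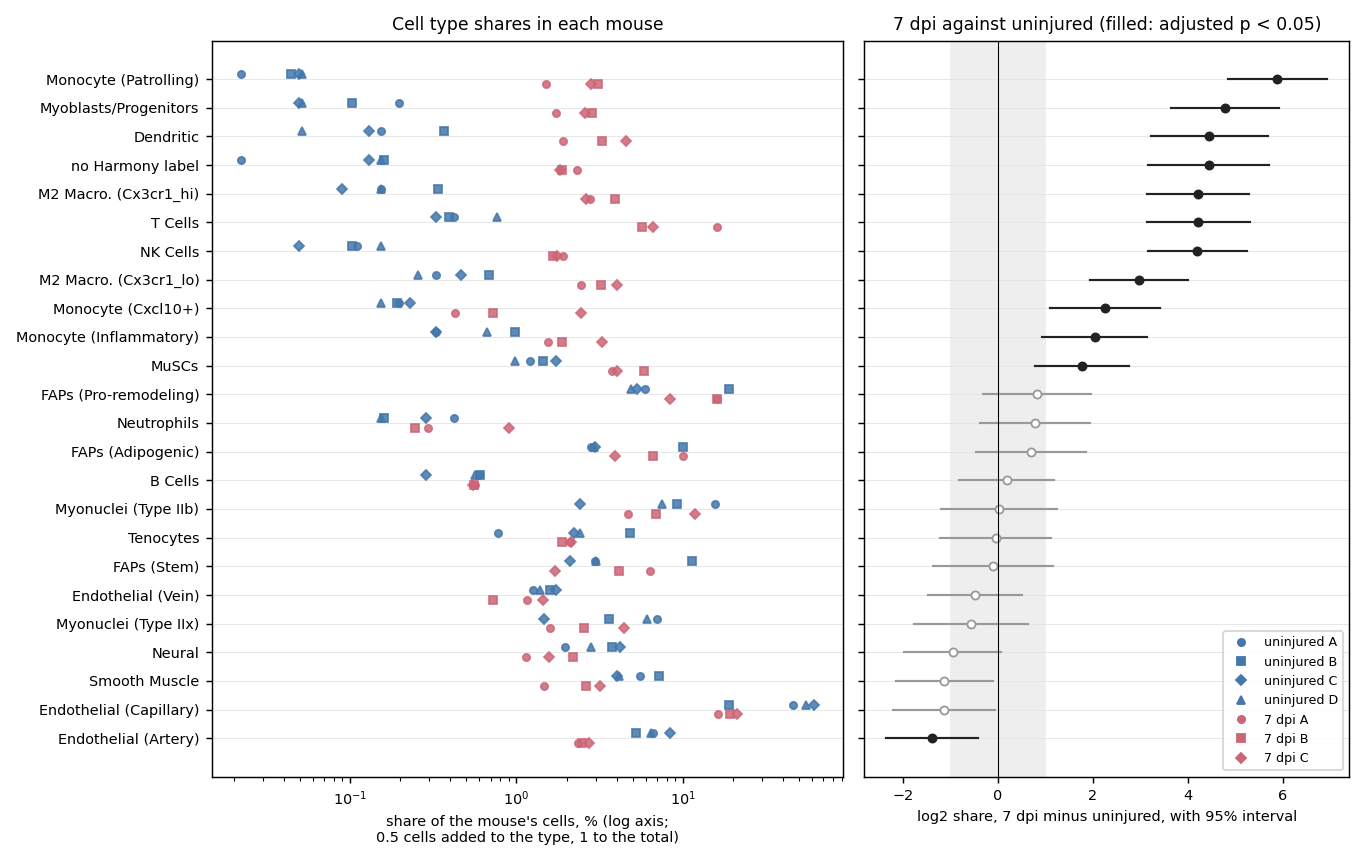
Left, the share of each Harmony label among the cells of a mouse, in percent on a log axis with 0.5 cells added, for 4 uninjured (blue) and 3 mice at 7 dpi (red). Right, the log2 ratio of 7 dpi to uninjured with its 95% interval, filled where the limma adjusted p was under 0.05 and with the 2-fold band in grey. The 11 filled points to the right of 0 are 8 immune types, both myogenic progenitor types and the unlabelled cells, and the filled point to the left is the arterial endothelium.

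Immune cells made up 2.51%, 3.72%, 2.15% and 2.46% of cells in the uninjured mice and 29.3%, 24.1% and 29.3% at 7 dpi. The ranges were far apart (two-sided exact permutation test, p = 0.0286). Patrolling monocytes showed the largest ratio of the 24 labels. They numbered 3 of 11683 uninjured cells, with none in uninjured A and D (0 of 2267 and 0 of 974 cells, which allows shares of up to 0.132% and 0.308%, counting error only), and were 1.49%, 3.09% and 2.78% of cells at 7 dpi. The log2 ratio was 5.89 (95% interval 4.84 to 6.94, limma adjusted p = 5.50e-09), and the pooled cell counts gave a ratio of 88.4 with a counting interval of 29.9 to 431. The label differed between the authors' integrations. BBKNN, their second method, named 200 of the 283 patrolling monocytes at 7 dpi (70.7%) macrophages with high Cx3cr1 and 48 (17%) patrolling monocytes, and placed 0, 36 and 17 cells of the injured mice and none of the uninjured cells under the patrolling name. Scanorama, the third, named 267 of the 283 (94.3%) patrolling monocytes, but its name was wider. In uninjured mice it also covered 17 of 19 macrophages with high Cx3cr1 and 48 of 55 with low Cx3cr1. Scanorama placed 10, 34, 29 and 1 uninjured cells and 463, 530 and 263 cells at 7 dpi under the patrolling name. Mean shares under that name were 0.529% and 10.6%, so the near absence from uninjured muscle was not seen there.

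T cells were 0.397%, 0.381%, 0.318% and 0.719% of uninjured cells and 16.0%, 5.68% and 6.58% of cells at 7 dpi. Each injured mouse exceeded each uninjured mouse, and 7 dpi A held the highest share. The log2 ratio was 4.22 (3.14 to 5.30, limma adjusted p = 4.49e-07). NK cells, innate cytotoxic lymphocytes, were at 0.0398% to 0.103% in uninjured and 1.65% to 1.91% in 7 dpi mice, a log2 ratio of 4.20 (limma adjusted p = 4.34e-07). B cells behaved otherwise, with 0.573%, 0.586%, 0.278% and 0.513% against 0.553%, 0.542% and 0.530%. All 3 values lay inside the uninjured range, and the log2 ratio of 0.18 had an interval of -0.82 to 1.18, which misses the 2-fold rule at its upper end. Its direction turned on centred log ratios (-1.40), where B cells were called lower.

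Dendritic cells, which present antigen, were at 0.132%, 0.352%, 0.119% and 0% (0 of 974) in uninjured mice and at 1.89%, 3.25% and 4.51% at 7 dpi. This was a log2 ratio of 4.45 (3.22 to 5.68, limma adjusted p = 1.19e-06). M2 macrophages, the class associated with the repair phase, were higher in both deposited forms. Those with high Cx3cr1 were at 0.0795% to 0.322% against 2.61% to 3.89% (log2 ratio 4.22, limma adjusted p = 4.49e-07), and those with low Cx3cr1 at 0.205% to 0.674% against 2.45% to 4.02% (2.97, adjusted p = 2.42e-05).

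The 2 monocyte labels of the early response were also above the uninjured level, by smaller ratios. Cxcl10+ monocytes, named for an interferon-induced chemokine, were at 0.176%, 0.176%, 0.219% and 0.103% in uninjured and 0.419%, 0.707% and 2.43% in 7 dpi mice (log2 ratio 2.25, limma adjusted p = 0.0017). Inflammatory monocytes were at 0.309%, 0.967%, 0.318% and 0.616% against 1.54%, 1.86% and 3.27% (2.04, limma adjusted p = 0.00236). For both, 7 dpi C carried the highest share. Of the 22 uninjured cells labelled Cxcl10+ monocytes 14 (63.6%) were named capillary endothelium by BBKNN and 14 by Scanorama, against 5 and 2 of 110 at 7 dpi. Neither method gave any cell a Cxcl10+ name, so only the endothelial name carries information. By either method, the uninjured shares thus rest largely on cells named capillary endothelium. Whether the methods gave that name to the same cells was not tested. Neutrophils, the first cells to arrive after injury, were at 0.397%, 0.147%, 0.278% and 0.103% against 0.285%, 0.236% and 0.883%. Here 2 of the 3 injured mice lay within the uninjured range, and the log2 ratio of 0.79 (-0.38 to 1.95, limma adjusted p = 0.244) left the label undecided. With the other names the 7 dpi mean was below the uninjured mean, at 0.231% and 0.179% under BBKNN and 0.202% and 0.148% under Scanorama. In 7 dpi C, 20 cells were neutrophils under Harmony, 3 under BBKNN and 2 under Scanorama. Cells without a Harmony label were at 0% to 0.147% in uninjured mice and 1.81% to 2.31% at 7 dpi (4.45, limma adjusted p = 1.79e-06).

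Myoblasts/Progenitors, the cells between the stem cell and the fiber, numbered 9 of 11683 uninjured cells and 282 of 12473 cells at 7 dpi. Their shares were 0.176%, 0.0879%, 0.0398% and 0% against 1.73%, 2.85% and 2.56%, a log2 ratio of 4.79 (3.65 to 5.92, limma adjusted p = 3.09e-07). MuSCs, the reserve from which these cells arise, were at 1.19%, 1.44%, 1.73% and 0.924% in uninjured mice and 3.77%, 5.85% and 3.98% at 7 dpi. The groups were again separate, and the log2 ratio was 1.76 (0.77 to 2.75, limma adjusted p = 0.00302). The call for MuSCs was lost on centred log ratios and by edgeR with TMM, while both calls held with non-immune cells as the denominator (log2 ratios of 2.23 and 5.25). Within the myogenic cells the make-up was also not the uninjured one: MuSCs were 87.1% to 100% of the pair in uninjured mice and 60.8% to 68.6% at 7 dpi, a difference of -29.2 percentage points.

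Myonuclei, here nuclei or fragments of mature fibers caught in a whole-cell preparation, varied more among uninjured mice than between the groups. Type IIb, the fast glycolytic fiber type, was at 15.7%, 9.2%, 2.39% and 7.49% against 4.68%, 6.93% and 11.7%. The 3 injured mice lay inside the uninjured range, and the log2 ratio of 0.02 had an interval of -1.21 to 1.25. Type IIx, a fast type, was at 6.97%, 3.6%, 1.45% and 6.06% against 1.58%, 2.52% and 4.42% (-0.57, interval -1.77 to 0.63), again within the range. On centred log ratios both were called lower, by -1.56 for Type IIb and -2.15 for Type IIx, and edgeR with TMM called both lower too.

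Endothelial cells were the largest class in 3 of the 4 uninjured mice. Arterial endothelium was at 6.57%, 5.24%, 8.35% and 6.37% in uninjured mice and 2.33%, 2.48% and 2.69% at 7 dpi, so that all injured mice were under all uninjured mice. The log2 ratio was -1.39 (-2.35 to -0.42, limma adjusted p = 0.0143), and it was -0.92 and no longer called among non-immune cells (limma adjusted p = 0.118). Without 7 dpi A the call was also lost (-1.34, limma adjusted p = 0.065). Capillary endothelium was at 45.9%, 18.8%, 61.3% and 55.3% against 16.2%, 19.1% and 21.3%. Uninjured B sat among the injured mice, the log2 ratio was -1.14 (-2.21 to -0.07) and the limma adjusted p was 0.064. Without uninjured B it was -1.52 and called (limma adjusted p = 0.00555). Venous endothelium had a log2 ratio of -0.48 (-1.47 to 0.51) and met the 2-fold rule only when immune cells were left out of the denominator (-0.01, -0.90 to 0.87). Within the endothelial cells the make-up overlapped between groups, with capillary cells at 83.1% ± 6.56 (SD, n = 4) and 83.9% ± 1.74 (SD, n = 3), arterial cells at 13.6% and 11.2%, and venous cells at 3.25% and 4.88%.

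Smooth muscle cells of the vessel wall were at 5.51%, 7.15%, 4.02% and 4.11% against 1.46%, 2.59% and 3.18%. The groups did not overlap, but the log2 ratio of -1.14 (-2.16 to -0.12) had a limma adjusted p of 0.057. The call was made in 6 of 18 alternatives, among them without uninjured C (-1.25) and without 7 dpi C (-1.38). Neural cells, which include the glia of intramuscular nerves, were at 1.94% to 4.20% and 1.14% to 2.17%, a log2 ratio of -0.96 (-1.98 to 0.07, limma adjusted p = 0.105). Without uninjured A it was -1.17 (limma adjusted p = 0.0475).

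As shares of all cells, FAPs were not separable from the uninjured level in any of their 3 forms. Pro-remodeling FAPs, the matrix-producing form, were at 5.87%, 19.0%, 5.33% and 4.83% against 16.1%, 16.1% and 8.35%, a log2 ratio of 0.82 (-0.32 to 1.96). Adipogenic FAPs were at 2.78%, 10.0%, 2.94% and 2.87% against 9.99%, 6.63% and 3.89% (0.69, -0.46 to 1.84), and Stem FAPs at 2.96%, 11.4%, 2.09% and 2.98% against 6.32%, 4.15% and 1.68% (-0.11, -1.37 to 1.15). Uninjured B was the highest uninjured mouse in all 3, and held 40.4% FAPs where the other uninjured mice held 10.4% to 11.6%. Without uninjured B the adipogenic and pro-remodeling shares were called higher at 7 dpi (1.14 and 1.27, limma adjusted p = 0.0448 and 0.0224), and on centred log ratios their ratios turned to -0.89 and -0.76. Tenocytes, cells of the tendon, were at 0.75%, 4.81%, 2.21% and 2.36% against 2.10%, 1.86% and 2.12% (-0.05, -1.22 to 1.11).

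With each label counted within its own broad class, an alternative chosen after seeing the data, the groups of mice did not overlap in 13 of 20 labels (65%), while 0 of 20 passed the exact test after adjustment and 7 had an unadjusted p under 0.05. The myogenic and the myonuclear class hold 2 labels each, which are complements, so each pair is a single result entered under both labels. Among lymphocytes B cells made up 54.2%, 55.6%, 43.8% and 38.5% in uninjured mice and 3%, 6.89% and 6% at 7 dpi, and T cells 44.4% and 77.8% on average. B cells, whose share of all cells lay within the uninjured range, thus held a smaller part of their class in every injured mouse. Among myeloid cells inflammatory monocytes averaged 33.3% and 13.9%, neutrophils 15.1% and 2.80%, and patrolling monocytes 0.933% and 15.4%. Uninjured class totals were small, and uninjured D had 0 dendritic cells and 0 patrolling monocytes. Among FAPs the Stem form was at 25.5%, 28.2%, 20.1% and 27.9% against 19.5%, 15.4% and 12.1% (exact permutation p = 0.0571, adjusted 0.127).

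Set against the other time points as a description, the labels stood at different stages of return. Neutrophils averaged 11.6% of cells at 1 dpi and 0.468% at 7 dpi, so that 2.08% of their largest departure from the uninjured mean remained. Inflammatory monocytes had 9.29% of their departure left, patrolling monocytes 9.59% after a mean of 25.4% at 3.5 dpi, and the macrophages with high and low Cx3cr1 had 21% and 21.8%. T cells (92.2%), Myoblasts/Progenitors (95.1%) and MuSCs (101%) were at or near their largest departure, which for all labels was taken over the means at 1 to 5 dpi. The T cell mean at 7 dpi depends on 7 dpi A, at 16.0% against 5.68% and 6.58% in 7 dpi B and C. For MuSCs the 5 dpi mean of 4.49% had an SD of 3.94. Among the labels that were lower after injury, Type IIb myonuclei had 12% of the departure left, Stem FAPs 20.0% and tenocytes 25%, while smooth muscle had 62.0%, capillary endothelium 66.7% and arterial endothelium 68.9%. Adipogenic and pro-remodeling FAPs had passed the uninjured mean. The uninjured mean of Stem FAPs, and so their 20.0%, depends on uninjured B. That mouse held 11.4% Stem FAPs and the other uninjured mice 2.09% to 2.98%, against 6.32%, 4.15% and 1.68% at 7 dpi. A mean that had moved far towards the uninjured mean could still differ from it: patrolling monocytes combined 9.59% of the departure left with the largest ratio to uninjured muscle.

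As 1 value for the whole mixture, the distance of a mouse from the uninjured mean composition (arcsine square root shares) was 0.234, 0.516, 0.340 and 0.206 for uninjured mice, each against the other uninjured mice, and 0.624, 0.551 and 0.543 at 7 dpi. The farthest uninjured mouse, B, was closer than the nearest injured mouse, 7 dpi C. The day means rose to 1.02 at 3.5 dpi and stood at 0.837 at 5 dpi and 0.573 at 7 dpi. Between the group means of uninjured and 7 dpi the distance was 0.551 (two-sided exact permutation test, p = 0.0571), so that the whole composition at 7 dpi was not separated from the uninjured one at the threshold. Among non-immune types the distance was 0.363 (exact permutation p = 0.0857), and on centred log ratios of all labels it was 10.9 (exact permutation p = 0.0286).

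**Figure D2:**
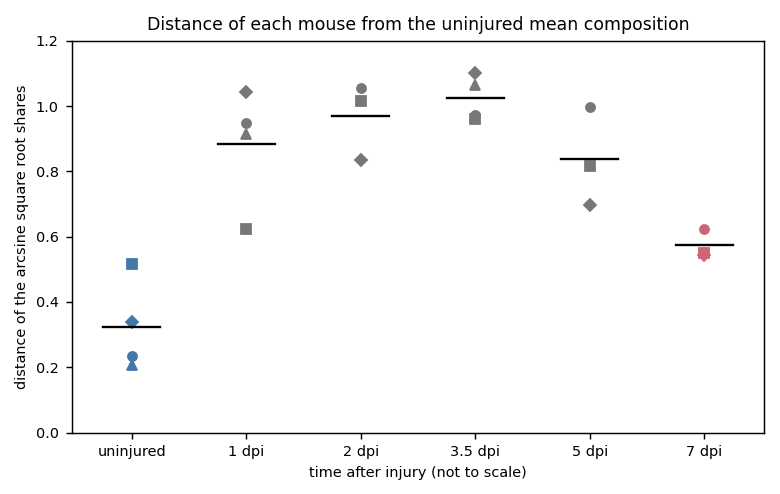
Distance of each mouse's cell type composition from the uninjured mean, on arcsine square root shares, by time after injury with each point a mouse. The 7 dpi mice lie at 0.543 to 0.624, above the uninjured mice at 0.206 to 0.516 and under the mean of 1.02 at 3.5 dpi.

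Within cell types, 13 types had enough cells (at least 10 in at least 3 uninjured and 2 injured mice) for 166 tests over 13 measures. Of these, 9 (5.42%) were called away from the uninjured level by limma, 9 higher and 0 (0%) lower, 68 (41%) were back within 1.5-fold and 89 were undecided. By the exact test 0 were called after adjustment and 10 had an unadjusted p under 0.05. Groups of mice did not overlap in 31 (18.7%). The T cells, NK cells, monocytes, macrophages, dendritic cells and Myoblasts/Progenitors were not among the 13 because uninjured mice had too few of them.

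Tenocytes and pro-remodeling FAPs, both producers of extracellular matrix, carried more UMIs per cell at 7 dpi. Median UMIs of tenocytes were 4570, 3218, 3954 and 6905 in uninjured mice and 9862, 9706 and 12902 at 7 dpi, a log2 ratio of 1.26 (0.78 to 1.74, limma adjusted p = 0.000171). In pro-remodeling FAPs they were 6726, 4092, 5029 and 8028 against 9713, 14174 and 15051 (1.14, 0.66 to 1.63, limma adjusted p = 0.000526). The groups did not overlap in either type. In MuSCs they were 5892, 3912 and 5450 in the 3 uninjured mice with 10 cells or more and 6618, 10596 and 9623 at 7 dpi (0.81, limma adjusted p = 0.048), a call that was lost in 9 of 15 alternatives, among them without uninjured B (0.63) or C (0.87) and without 7 dpi B (0.67) or C (0.74).

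Median genes per cell were called higher in the same 3 types, and the groups did not overlap in 6 of 13 types. They were 1668, 1168 and 1663 against 2430, 3131 and 2949 in MuSCs (log2 ratio 0.93, limma adjusted p = 0.00193). In tenocytes they were 1575, 1206, 1530 and 2185 against 3098, 2696 and 3328 (0.93, adjusted p = 0.00153), and in pro-remodeling FAPs 2369, 1554, 1982 and 2675 against 3175, 3868 and 4097 (0.81, adjusted p = 0.0055). All injured mice were above all uninjured mice in each. The call for pro-remodeling FAPs was lost without uninjured C (0.78, limma adjusted p = 0.053) and without 7 dpi C (0.74, limma adjusted p = 0.0578), and that for MuSCs with a minimum of 5 cells in place of 10 (0.77, limma adjusted p = 0.0825). The other 3 types without overlap were endothelial and were not called: arterial (0.30, limma adjusted p = 0.275), venous (0.40, limma adjusted p = 0.125) and capillary (0.40, limma adjusted p = 0.158).

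Other types were back in both measures. Type IIb myonuclei had median UMIs of 2918, 2804, 2105 and 2155 against 2120, 2453 and 2650 (log2 ratio -0.04, -0.52 to 0.44) and genes at 0.03 (-0.30 to 0.36). Smooth muscle cells were at -0.03 (-0.51 to 0.46) for UMIs and 0.10 for genes, neural cells at 0.10 and 0.19, and Stem FAPs at -0.01 and 0.08. B cells were back in genes (0.15). The share of smooth muscle was lower in every injured mouse while the UMIs and genes of its cells were within 1.5-fold. Stem FAPs and pro-remodeling FAPs stood on different sides of the rule. Among endothelial cells UMIs per venous cell were 5838, 4934, 6548 and 5769 against 7741, 9367 and 7710, without overlap (0.52, limma adjusted p = 0.165), and capillary and arterial cells were at 0.38 and 0.20, so that all 3 were undecided. Adipogenic FAPs (0.58) and Type IIx myonuclei (-0.51, limma adjusted p = 0.169) were undecided too.

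**Figure D3:**
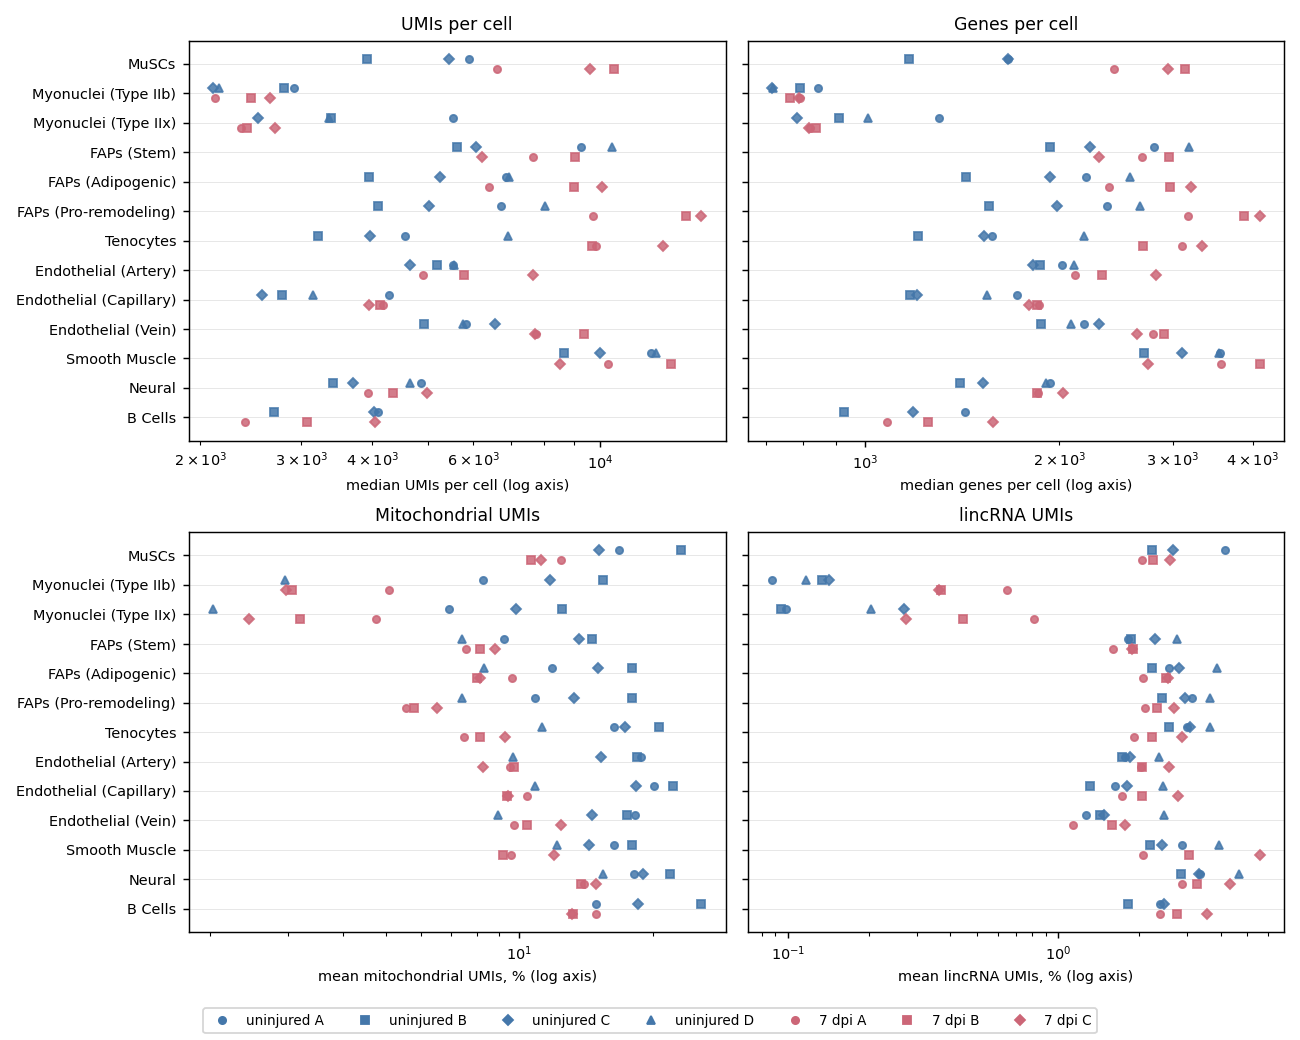
Median UMIs and genes per cell and the mean mitochondrial and lincRNA percent of UMIs, on log axes, by cell type, each point a mouse with at least 10 cells of the type (uninjured blue, 7 dpi red). MuSCs, pro-remodeling FAPs and tenocytes separate in genes, and both myonuclear types separate in lincRNA.

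Genes per cell depend on UMIs per cell, so genes were also read from a curve at 4000 UMIs. A mouse entered for a type with at least 30 cells there and with 4000 UMIs between the 5th and 95th percentiles of their UMIs, and a type with at least 2 mice in each group. Pro-remodeling FAPs, called for genes per cell, did not meet this and have no value. At this depth 6 of 11 types (54.5%) had more genes at 7 dpi by limma. MuSCs had 1152 and 1339 genes in the 2 uninjured mice that qualified and 1672 and 1606 in 2 injured mice, a log2 ratio of 0.40 (0.27 to 0.53, limma adjusted p = 9.86e-07). The standard error was 0.0626 in both MuSCs and tenocytes, the types with 2 against 2 mice. It was pooled over types of the same mice, so this p-value and interval do not measure the spread of MuSCs alone. The other 5 were arterial endothelium (0.16), adipogenic and Stem FAPs (0.14 each), capillary endothelium and smooth muscle (0.12 each), with folds of 1.09 to 1.11, under the 1.5-fold used above. Type IIx (0.02) and Type IIb myonuclei (0.06), venous endothelium (0.06), neural cells (0.11) and tenocytes (0.12) were not called. The count fell to 1 without 7 dpi A and to 2 without 7 dpi B. In MuSCs the log2 ratio was 0.29 to 0.51 over the 8 alternatives in which they could be fitted. Some of these left 1 MuSC value in a group.

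Ribosomal protein transcripts and protein-coding transcripts were back within 1.5-fold in 13 of 13 types each. The narrowest intervals for ribosomal protein transcripts were in neural cells (log2 ratio -0.13, -0.28 to 0.03), Stem FAPs (-0.28, -0.46 to -0.09) and capillary endothelium (-0.02, -0.21 to 0.18). In Stem FAPs, although within 1.5-fold, they were 13.0%, 14.1%, 12.5% and 13.1% of UMIs against 10.6%, 11.8% and 10.3%, without overlap (limma adjusted p = 0.0761). Protein-coding percent was within 0.04 of 0 on the log2 scale in all 13 types, for example 0.00 in Type IIb myonuclei, -0.01 in Type IIx myonuclei and 0.03 in pro-remodeling FAPs. Antisense transcripts were back in 12 of 13 types, such as neural cells (-0.14), Type IIb myonuclei (-0.02) and venous endothelium (0.06), with smooth muscle undecided (0.27).

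Transcripts of transcription factors were back in 11 of 13 types. Smooth muscle (0.19), Type IIb myonuclei (0.23) and tenocytes (-0.04) were among them. Capillary endothelium (0.32, 95% interval 0.09 to 0.55), adipogenic FAPs (0.29, 0.06 to 0.51) and arterial endothelium (0.27, 0.04 to 0.50) were too, although their intervals lay above 0. Without uninjured D these 3 were called higher by limma (0.41, 0.35 and 0.35, adjusted p = 0.00659, 0.029 and 0.0307). In Stem FAPs they were 3.96%, 3.65%, 3.28% and 3.89% of UMIs against 4.65%, 4.63% and 4.91%, without overlap (log2 ratio 0.36, limma adjusted p = 0.048), and the call was lost in 12 of 17 alternatives, the omission of any mouse but uninjured A and D among them (0.30 to 0.38). B cells were undecided (0.35). Heat-shock transcripts, which respond to stress and to dissociation, were back in 5 types, among them adipogenic FAPs (0.00), Stem FAPs (-0.14) and Type IIb myonuclei (0.17). MuSCs and B cells had the lowest ratios. In MuSCs heat-shock transcripts were 2.04%, 2.17% and 2.39% against 1.49%, 1.46% and 0.913% (-0.80, limma adjusted p = 0.065), and in B cells 2.94%, 1.80% and 2.49% against 1.25%, 1.54% and 0.693% (-1.10, limma adjusted p = 0.065). The groups were separate in both types, and neither passed the threshold. Both were called lower with each mouse centred on its mean over types (limma adjusted p = 0.00506 and 0.0107), with saturation as covariate (limma adjusted p = 0.0179 and 0.0283), and without uninjured D, which had too few cells of either type for a value (limma adjusted p = 0.0375 and 0.0458). With the sample letters as a replicate block the limma adjusted p was 0.0218 and 0.00499. Without uninjured D and with the block the same values of these 2 types entered, and the ratios stayed at -0.80 and -1.10. Only the fitted spread and the adjustment changed there, so these calls are not separate support. The unadjusted exact permutation p was 0.1 in both types, the smallest for 3 against 3 mice.

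LincRNA, long intergenic noncoding RNA, was away from the uninjured level in both myonuclear types. In Type IIb myonuclei it was 0.0874%, 0.134%, 0.142% and 0.117% of UMIs in uninjured mice and 0.647%, 0.369% and 0.364% at 7 dpi, a log2 ratio of 1.91 (1.35 to 2.46, limma adjusted p = 1.63e-06). In Type IIx it was 0.0987%, 0.0947%, 0.269% and 0.204% against 0.817%, 0.446% and 0.274% (1.62, 0.98 to 2.27, limma adjusted p = 0.000339), where the lowest injured and highest uninjured mice were close. Myonuclei remained the types with the least lincRNA, since the other 11 types averaged over 1% in both groups. Type IIb was called in each alternative but the exact test, and Type IIx lost its call in 5 of 17. LincRNA in neural cells was back (-0.02), and 10 types were undecided. The myonuclei were thus back in UMIs and genes for Type IIb while their lincRNA was not, and intronic reads of the libraries moved with it, a relation that was not tested. The bplncRNA class (lncRNA from bidirectional promoters) was back in 4 types, with Type IIb at -0.04, Type IIx at 0.09 and capillary endothelium at -0.10.

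Mitochondrial transcripts made up a lower mean percent of UMIs at 7 dpi in 13 of 13 types, and in none did the difference pass the threshold. The median log2 ratio was -0.66, from -1.18 in Type IIb myonuclei to -0.38 in neural cells, and all 13 were undecided. In capillary endothelium the values were 20.2%, 22.2%, 18.3% and 10.8% against 10.4%, 9.35% and 9.42%. In pro-remodeling FAPs they were 10.9%, 17.9%, 13.3% and 7.40% against 5.55%, 5.78% and 6.50%, and in Type IIb myonuclei 8.28%, 15.4%, 11.7% and 2.95% against 5.09%, 3.07% and 2.97%. Uninjured D was the lowest of the uninjured mice in each, and the groups did not overlap in 6 of 13 types. Without uninjured D 10 of 13 types were called lower at 7 dpi, among them Type IIb (-1.67, limma adjusted p = 0.000119), Type IIx (-1.51) and pro-remodeling FAPs (-1.21), and B cells, Stem FAPs and neural cells were not. MuSCs were among the 10 although uninjured D had no value for them, and their ratio was -0.66 in both fits. The types of a mouse come from 1 library, so the count over types is not a count of independent results. SnoRNA, snRNA and miRNA transcripts, at under 0.02% of UMIs on average in each type tested, were undecided in all 36 tests.

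Averaged over the 11 types with at least 10 cells in all 7 mice, each type at equal weight, no measure of a mouse passed the exact test after adjustment (0 of 13, 0%; 0 had an unadjusted p under 0.05), and 1 of 13 (7.69%) did not overlap, namely genes. Genes per cell were 1922, 1447, 1599 and 1956 against 2070, 2191 and 2163 (two-sided exact permutation test, p = 0.0857). Ribosomal protein transcripts differed between this average and that over all cells, which also holds the immune types, MuSCs, Myoblasts/Progenitors and unlabelled cells. The weighting and the set of cells change together, so their parts cannot be told apart. At equal weight of the 11 types ribosomal protein transcripts were 8.55%, 9.47%, 9.59% and 10.1% against 9.12%, 9.41% and 9.20%, inside the uninjured range (exact permutation p = 0.657). Over all cells of a mouse they were 7.88%, 10.2%, 9.43% and 9.41% against 11.5%, 11.7% and 11.3%, with each injured mouse above each uninjured mouse (exact permutation p = 0.0571). UMIs per cell were also closer over the 11 types at equal weight (geometric means of 4909 and 6155) than over all cells (3861 and 5943).

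**Figure D4:**
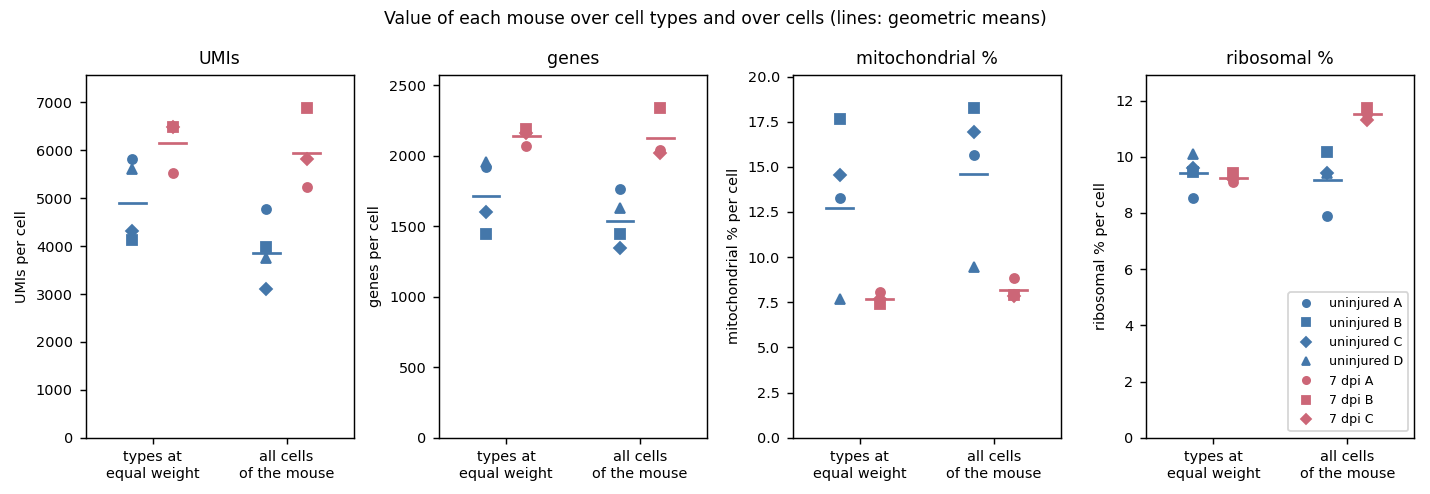
Value of each mouse for UMIs, genes, mitochondrial percent and ribosomal protein percent, uninjured blue, 7 dpi red, lines at geometric means. Left of each panel, the average over the 11 cell types compared in all 7 mice, at equal weight. Right, the average over all cells, which includes the types left out on the left. Ribosomal protein percent overlaps at equal weight (8.55% to 10.1% against 9.12% to 9.41%) and separates over all cells (7.88% to 10.2% against 11.3% to 11.7%).

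The deposited tables also name every cell after the BBKNN integration. Whether cells under 1 Harmony label carried the same BBKNN name in both groups was asked after seeing the data. Groups of mice did not overlap for 10 of 27 pairs of names (37%), and 0 passed the exact test after adjustment, with 9 at the smallest unadjusted p. BBKNN names under the same Harmony label nearly complement each other, so these pairs are not independent results. Harmony MuSCs were named MuSCs by BBKNN in 59.3%, 69.4%, 85.1% and 88.9% of cells in uninjured mice and in 4%, 4.84% and 11.1% at 7 dpi. The injured mice's MuSCs were instead named Committed Progenitors in 92.4%, 92.7% and 88.9% of cells, against 3.70%, 8.16%, 3.45% and 0% in uninjured mice (two-sided exact permutation test, p = 0.0286, adjusted 0.0857). Scanorama could not show this switch, since it named almost no cell MuSCs in either group. It named 163 of 172 uninjured Harmony MuSCs (94.8%) Committed Progenitors. It placed 0, 1, 0 and 0 uninjured cells and 0, 1 and 0 cells at 7 dpi under MuSCs.

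FAP names under BBKNN also differed between groups. Harmony pro-remodeling FAPs were named adipogenic by BBKNN in 99.2%, 98.3%, 98.9% and 100% of uninjured cells and in 11.3%, 24.1% and 16.4% of cells at 7 dpi, and named pro-remodeling in 0% to 1.12% against 88.7%, 75.6% and 83.6%. Adipogenic FAPs were named pro-remodeling in 0% to 4.76% against 63.9%, 50.9% and 54.5%, and Stem FAPs in 0% to 3.45% against 22.5%, 13.6% and 39.5%. The shares of all 3 FAP labels overlapped between groups under Harmony, whereas BBKNN gave 4, 8, 4 and 1 pro-remodeling FAPs in uninjured mice against 1331, 699 and 226 at 7 dpi. Under Scanorama, 1093 of 1097 uninjured pro-remodeling FAPs of Harmony were named adipogenic, as were 582 of 590 Stem and 547 of 581 adipogenic FAPs. Scanorama gave 1, 5, 2 and 1 pro-remodeling FAPs in uninjured mice and 22, 15 and 7 at 7 dpi. These were 0.0398% to 0.146% of cells against 0.309% to 0.369%, without overlap. With nearly all FAPs under a single name, Scanorama could not show a large switch between FAP names. Arterial, capillary, smooth muscle, neural and B cell names were mostly the same in both groups: arterial endothelium kept its name in 94.5% to 99.4% against 98.4% to 99.1%, neural cells in 93.2% to 100% against 91.2% to 97.8%, and smooth muscle in 94.5% to 97.5% against 90.8% to 97.2%. Venous endothelium kept its name in 35.7% to 84.6% against 62.3% to 84.4%.

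Within Harmony pro-remodeling FAPs at 7 dpi, the cells that BBKNN named adipogenic had median UMIs of 6955, 8789 and 10482 and those it named pro-remodeling 10141, 15802 and 16396. Uninjured cells, nearly all named adipogenic, had 6689, 4078, 4995 and 8028. In each injured mouse the cells under the uninjured name were the nearer to the uninjured values. In MuSCs the 9, 12 and 10 injured cells named MuSCs had medians of 5006, 7652 and 6779, next to 6074, 3896, 5416 and 8108 in uninjured mice. With BBKNN names the count of within-type values called away was 5 of 142. The label decides which cells are compared. Where BBKNN names differed between groups, a difference within a Harmony label and a difference in which cells carry it cannot be told apart. Tenocytes kept their BBKNN name in 95.7% to 100% of uninjured cells and in 93.6%, 88.6% and 97.9% at 7 dpi. Cells named tenocytes by both methods had median UMIs of 4570, 3205, 3940 and 7199 against 9352, 8098 and 12689, without overlap.

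**Figure D5:**
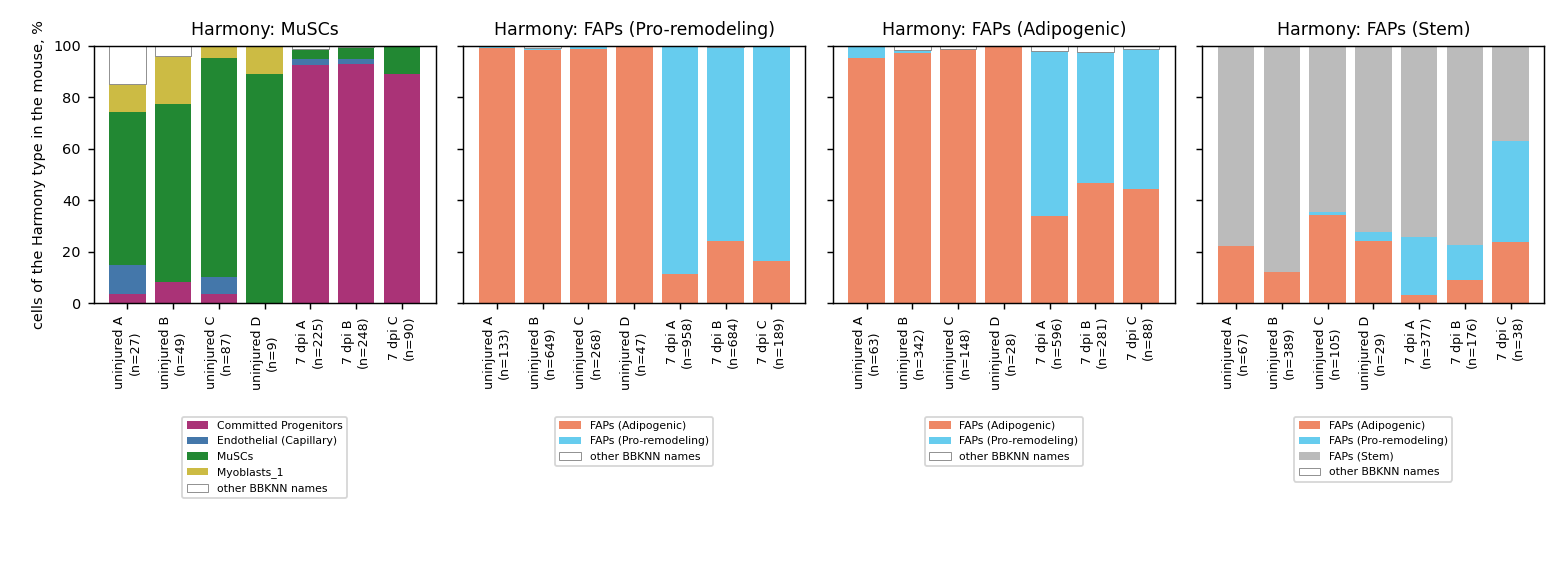
BBKNN names of the cells under 4 Harmony labels, as percent of the label's cells in each mouse, with the number of cells under the mouse's name. MuSCs and pro-remodeling FAPs carry largely different BBKNN names at 7 dpi than in uninjured mice.

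Authors' states along the myogenic trajectory, set for a part of the myogenic cells, were compared over all myogenic cells and myonuclei of a mouse (544, 489, 282 and 141 uninjured, 701, 770 and 514 at 7 dpi). Activated MuSCs were 0%, 0.613%, 0.355% and 0% against 6.13%, 5.71% and 3.31%, and committed myoblasts 0.368%, 0%, 0.355% and 0% against 3.42%, 3.90% and 1.17%. Both were separate between groups (two-sided exact permutation test, p = 0.0286, adjusted 0.0571) and missed the threshold after adjustment over the 4 states. Quiescent MuSCs were 2.57%, 7.36%, 24.1% and 2.84% against 26.8%, 25.5% and 14.0% (exact permutation p = 0.114), and fusing myocytes 1.84%, 0.818%, 2.13% and 0.709% against 2.00%, 2.86% and 1.36% (exact permutation p = 0.257). Quiescent and fusing states overlapped over this denominator, which includes the myonuclei. Over all cells of a mouse quiescent MuSCs were 0.411% to 1.35% against 3.15% to 4.62%, without overlap (exact permutation adjusted p = 0.0381). Over cells with a state only, the quiescent difference turned to -7.56 percentage points. Fusing myocytes there were 7.89% to 38.5% against 5.20% to 7.53%, without overlap (exact permutation p = 0.171), with 5 such cells in uninjured D. The fusing state held different Harmony labels in the 2 groups. In uninjured mice 19 fusing cells were Type IIb myonuclei, 1 a MuSC and 1 a Myoblast/Progenitor. At 7 dpi 14 were Type IIb myonuclei, 2 Type IIx myonuclei and 27 Myoblasts/Progenitors. The overlap of this state thus rests on cells labelled myonuclei. Of the 563 Harmony MuSCs at 7 dpi 443 were in the quiescent state, 33 in the activated state and 85 in none, and of the 282 Myoblasts/Progenitors 71 were activated, 58 committed, 27 fusing and 113 in none. Most MuSCs at 7 dpi thus carried the quiescent state and the BBKNN name Committed Progenitors together.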

How the data were processed

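Per-cell tables were used for 4 uninjured and 3 mice at 7 dpi, 1 mouse per sample, with the mouse as the unit. Exact permutation p-values rest on the values of the mice alone. The limma p-values and intervals also take spread from the other types of the same mice, which are not independent. They therefore do not measure the spread between mice of each type by itself. The authors aligned reads to mm10 with Cell Ranger 3.1.0, removed ambient RNA with SoupX, kept cells by genes, UMIs and mitochondrial percent, removed doublets with DoubletFinder and labelled cells after joint integration of all their datasets by Harmony, Scanorama or BBKNN. UMIs per cell were deposited as estimated counts after the ambient correction, and the authors' gene number per cell is a count. The deposited percent columns give the percent of UMIs in a transcript class, and the sets overlap, since mitochondrial plus protein-coding percent passed 100 in 11970 of 24156 cells. The ambient fraction is the authors' estimate per library, as a fraction. No deposited cell fell under 1000 UMIs or passed 30% mitochondrial UMIs, while 1827 (7.56%) had under 750 genes, the stated minimum. Between pairs of mice 65 barcodes were shared (at most 0.265%).

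Shares were log2((cells + 0.5)/(total + 1)) and were compared with limma 3.58.1 (R 4.3.3), with Benjamini-Hochberg adjustment over labels and a threshold of 0.05. Within types, the median (UMIs, genes) or mean (percent) per mouse was compared on the log2 scale, adjusted over types and measures. A value was called back when its 95% interval lay within 2-fold (shares) or 1.5-fold. Two-sided exact permutation tests served for single values and states, with a smallest p of 0.0286 for 4 against 3 mice and 0.1 for 3 against 3. Summed UMIs per mouse were 5602464 to 38755533. Scripts were tested on simulated data. The simulated types varied independently, whereas real types of a mouse share 1 library, so the pooling of spread over types was not tested there. Alternatives used edgeR 4.0.16, other labels, denominators, filters, scales, covariates and leaving out each mouse. All labels were accounted for, and the text names those called, the 3 narrowest intervals among those back for each measure, and stem, fiber, FAP and endothelial types. The groups, lists and rules were chosen with earlier results of these data known. No labels gave batches, and 0 columns of other series were used.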

Additional observations from a re-analysis of the deposited data

Results flagged for a closer look

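Uninjured B stood apart from the other uninjured mice in the share of all 3 FAP labels. Adipogenic FAPs were 10.0% of its cells (2.78% to 2.94% in the others), pro-remodeling FAPs 19.0% (4.83% to 5.87%) and Stem FAPs 11.4% (2.09% to 2.98%). The gap to the nearest mouse was 0.977, 0.927 and 0.904 of the whole range, above Dixon's critical value for 4 samples. Of 48 groups of uninjured values examined, 3 were set apart; chance gives about 1 in 20 groups, and the 3 shares come from 1 mouse. Its FAPs were 40.4% of cells and its endothelial cells 25.7%, just above the 19.6% to 25.4% of the 7 dpi mice. The make-up of its FAPs by form (24.8% adipogenic, 47% pro-remodeling, 28.2% Stem) lay within or next to the range of the other uninjured mice. The cause was not tested.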

How the results depend on the processing

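Of the 12 shares called, 182 of 206 values under alternatives stayed past the threshold and 24 did not. Shares called numbered 0 by the exact permutation test (12 with an unadjusted p under 0.05), 2 of 13 among non-immune cells, and 11 to 15 on leaving out 1 mouse. With the broad class as denominator, chosen after seeing the data, 4 called shares turned: low-Cx3cr1 macrophages (-3.06 percentage points), Cxcl10+ monocytes (-3.88), inflammatory monocytes (-19.4) and MuSCs (-29.2). Values called within types numbered 20 with each mouse centred (8 higher, 12 lower), 5 with BBKNN names, 4 with Scanorama names, 0 by the exact test (10 unadjusted), 31 with saturation as covariate (18 higher, 13 lower), and 6 to 27 on leaving out 1 mouse, 27 (15 higher, 12 lower) without uninjured D. Genes at 4000 UMIs were called in 2 types with a straight line, in 0 of 4 at 2000 UMIs (2 unadjusted) and in 1 to 7 on leaving out 1 mouse, the 1 and 2 being without 7 dpi A and B. With all cells as denominator 3 of 4 states were called, namely quiescent and activated MuSCs and committed myoblasts. The composition distance was 10.9 on centred log ratios (exact permutation p = 0.0286) and 0.526 to 0.628 on leaving out 1 mouse. Apart from smaller tests, the cause was not tested.

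The sample letters did not pair the mice (correlations of -0.35, 0.36 and 0.12 for A, B and C). With letters as a replicate block 11 shares (11 higher, 0 lower) and 21 within-type values (12 higher, 9 lower) were called; uninjured D, alone in its letter, carries no weight there. With 3 to 4 mice a group, no share interval lay within 2-fold, so returns to the uninjured level were undecided at this size.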

Other observations

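Cells without a Harmony label were low in RNA at 7 dpi. Their median UMIs were 1844, 2025 and 1828 and their median genes 869, 843 and 687, against 5233, 6894 and 5817 UMIs over all cells of the same mice. Their mitochondrial transcripts averaged 16.3%, 15.6% and 13.6%. Uninjured mice had too few of them (12 cells in all) for a value.

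Types too rare in uninjured muscle for a comparison had values at 7 dpi alone or nearly so. Patrolling monocytes had median UMIs of 5621, 9919 and 9881, Myoblasts/Progenitors 8924, 13051 and 11672, and NK cells 4188, 5290 and 7150. T cells of 7 dpi mice had 3309, 3607 and 4637, next to 3701 and 4468 in uninjured B and C. Macrophages with low Cx3cr1 had 5170, 6038 and 5408, next to 6086 and 5549 in the same 2 uninjured mice, so that the medians of this type, whose share was called higher, lay close together in both groups. No test was made with 2 uninjured mice.

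Scanorama, the third integration, named T cells otherwise. It gave 0, 1 and 1 T cells at 7 dpi and placed 1128, 299 and 185 cells under NK cells, and it called 1907, 1125 and 309 cells adipogenic FAPs against 22, 15 and 7 pro-remodeling FAPs.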
